A study of Mus musculus with 5 samples.

Results

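Cytosolic ribosomal proteins form the protein part of the ribosome, which translates messenger RNA. Each protein of the large subunit (Rpl and Rplp genes) or small subunit (Rps genes and Rpsa) is made from a gene that is transcribed in nearly all cells, and the genes are kept in step so that subunits can be assembled in the nucleolus. NKX2-1 is a homeodomain transcription factor of lung and thyroid epithelium, best known in lung for its sites at surfactant and other epithelial genes. The genes described here were all protein-coding RefSeq genes on chromosomes 1 to 19 and X with a cytosolic ribosomal protein symbol, without Rps6k kinases, paralogs whose symbol carries an l, pseudogenes and predicted genes. They number 80 of 21631 protein-coding genes, by symbol 47 of the large and 33 of the small subunit. They include the retrogenes Rpl37rt, Rps27rt and Rps23rg1, and whether these yield ribosomal proteins was not checked.

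NKX2-1 was mapped by ChIP-seq, in which DNA bound by the protein is precipitated with an antibody and sequenced, on whole lung of wild-type mice at postnatal day 10, with 4 antibodies (Abcam133737, Millipore07-601, Abcam76013 and Abcam133638) and 1 library for each, next to 1 input library. Per the labels, chromatin of several tubes was pooled before it was divided, and all 4 peak lists name the same input, so the libraries are not known to come from separate animals and no value below has a replicate error. The 4 antibody libraries held 43031331 to 46547989 filtered tags and gave 40877 to 57891 peaks each. The shared input was shallower, with 10653749 filtered tags, and the antibody libraries held 4.04 to 4.37 times as many. In whole lung, strong occupancy in few cells and weak occupancy in many cells cannot be told apart. The tissue label was checked at epithelial genes: all 4 antibodies had a peak within 2 kb of an end of Nkx2-1, Sftpb, Sftpc, Ager and Cldn18, with a mean fold enrichment of 6.51 to 27.1. None had one at Alb, Ins2 or Myh6, genes of liver, pancreatic islets and heart, whereas the thyroid gene Tg had a region of all 4 antibodies at a mean fold enrichment of 6.07.

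For each gene, peaks whose summit lay within 2 kb of either end were taken, overlapping peaks were merged into regions, and the antibodies with a peak in each region were counted. The best region of a gene is the one with the most antibodies. Its level is the authors' fold enrichment over the local background for the highest peak of each antibody, and the mean over antibodies is called the mean fold. The rule that selects these genes uses their symbols and no measured value.

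The promoters of 9 of these genes are shown because they hold, or lie beside, the regions described below: Rplp0, Rps21 and Rpl41 are among the highest, Rpl5 and Rpl9 carry a match to an NKX2-1 form, Rps6 and Rps9 carry matches that recur in these promoters, Rps3a1 had the lowest mean fold of the genes with all 4 antibodies, and Rpl12 had no peak within 2 kb. Each sequence is the strand of the gene, 5′ to 3′, from 130 bases before to 20 after a RefSeq transcription start in GRCm38.p6, which shares its coordinates with mm10. Capitals mark exact matches, on either strand, to CTCAAG or CACTTGA (forms bound by NKX2-1), CCGGAAG (the form bound by ETS factors), TCGCGA (the core of a palindrome found in housekeeping promoters) and AAGATGGCG (the form bound by YY1).
Rplp0 (chr5:115559337-115559486, plus strand): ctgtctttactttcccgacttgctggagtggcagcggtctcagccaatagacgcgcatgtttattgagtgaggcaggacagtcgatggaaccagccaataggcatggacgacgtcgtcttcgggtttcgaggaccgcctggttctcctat
Rps21 (chr2:180257249-180257398, plus strand): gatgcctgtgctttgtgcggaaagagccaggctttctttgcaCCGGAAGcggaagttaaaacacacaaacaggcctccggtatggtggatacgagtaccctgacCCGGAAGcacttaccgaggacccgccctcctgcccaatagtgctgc
Rpl41 (chr10:128549149-128549298, minus strand): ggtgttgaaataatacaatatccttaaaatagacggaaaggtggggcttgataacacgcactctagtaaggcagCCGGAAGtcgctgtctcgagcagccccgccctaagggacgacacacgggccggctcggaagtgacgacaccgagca
Rpl5 (chr5:107900398-107900547, plus strand): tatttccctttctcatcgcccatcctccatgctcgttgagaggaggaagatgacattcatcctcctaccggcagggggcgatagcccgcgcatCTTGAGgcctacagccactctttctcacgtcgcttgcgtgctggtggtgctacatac
Rpl9 (chr5:65391412-65391561, minus strand): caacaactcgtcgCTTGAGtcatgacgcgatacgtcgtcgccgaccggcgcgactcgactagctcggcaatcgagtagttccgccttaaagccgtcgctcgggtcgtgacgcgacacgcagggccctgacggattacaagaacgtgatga
Rps6 (chr4:86857348-86857497, minus strand): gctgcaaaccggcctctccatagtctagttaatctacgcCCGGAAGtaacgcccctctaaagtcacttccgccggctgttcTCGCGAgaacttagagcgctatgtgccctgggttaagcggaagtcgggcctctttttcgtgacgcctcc
Rps9 (chr7:3703911-3704060, plus strand): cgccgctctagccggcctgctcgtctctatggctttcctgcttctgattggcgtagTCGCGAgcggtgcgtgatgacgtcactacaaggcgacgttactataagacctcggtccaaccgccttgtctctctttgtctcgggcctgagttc
Rps3a1 (chr3:86142649-86142798, minus strand): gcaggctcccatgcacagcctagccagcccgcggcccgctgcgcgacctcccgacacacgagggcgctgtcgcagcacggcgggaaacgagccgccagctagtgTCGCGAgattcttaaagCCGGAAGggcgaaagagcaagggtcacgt
Rpl12 (chr2:32961582-32961731, plus strand): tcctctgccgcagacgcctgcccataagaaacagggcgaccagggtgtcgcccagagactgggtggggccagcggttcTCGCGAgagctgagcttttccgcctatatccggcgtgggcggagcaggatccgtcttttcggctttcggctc

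The first comparison asks how many ribosomal protein genes carried NKX2-1 peaks near an end. A region called with all 4 antibodies lay within 2 kb of 59 of the 80 genes (73.8%), against 38.4% of all 21631 protein-coding genes. At least 1 antibody had a peak at 74 of the 80 (92.5%), against 57.2% of all genes. The large subunit contributed 35 of its 47 genes (74.5%) and the small subunit 24 of its 33 (72.7%), so both subunits had regions of all 4 antibodies at a like share.

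Each antibody on its own gave a higher share at ribosomal protein genes than at all genes. Abcam133737 had a peak at 65 of the 80 (81.3%, against 44.7% of all genes) and Abcam76013 at 64 (80%, against 43.8%). The antibodies with the longer lists, Millipore07-601 and Abcam133638, had peaks at 71 (88.8%, against 51.1%) and 73 (91.3%, against 54.6%). Ribosomal protein genes are short, with a median length of 3179 bp, against 17329 bp for all genes. Among genes shorter than 10 kb, 58 of 78 ribosomal protein genes (74.4%) had a region of all 4 antibodies, against 29.1% of all such genes. Genes were not matched more closely on length, and the part of length in these shares was not tested.

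Other gene groups that are expressed in most cells had shares close to that of the cytosolic ribosomal protein genes. A region of all 4 antibodies was near 56 of 78 mitochondrial ribosomal protein genes (71.8%), 50 of 70 translation factor genes (71.4%), 29 of 40 genes of respiratory complex I (72.5%) and 34 of 51 proteasome genes (66.7%). Ribosome assembly factors, which process ribosomal RNA and join the proteins to it, had 40 of 52 (76.9%). Genes of the terminal oligopyrimidine class, whose messenger RNAs are translated under the control of the same growth signals as ribosomal protein messages, had 18 of 21 (85.7%). That list shares genes with the translation factors, Eif4b among them, so the 2 shares are not independent. RNA polymerase I genes had 5 of 5, with the regions of Polr1c and Polr1b nearer an end of Xpo5 and of Chchd5. These shares do not set the cytosolic ribosomal protein genes apart from the other groups, and the difference between groups was not tested.

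**Figure D1:**
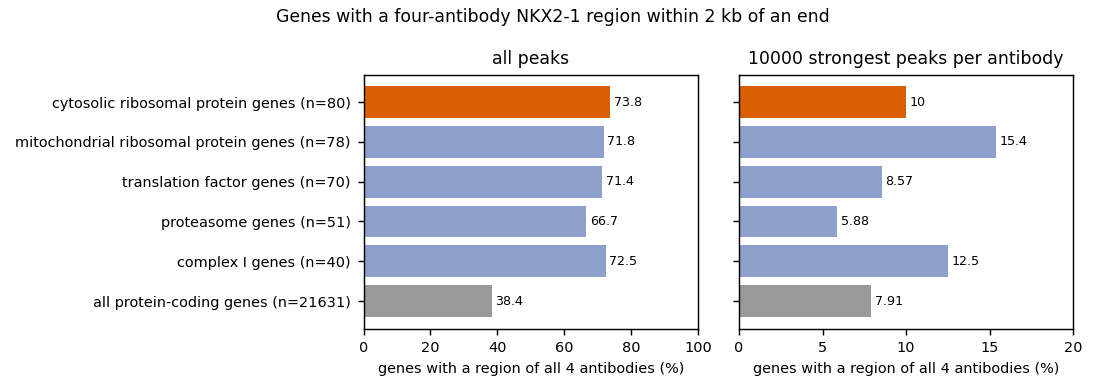
Horizontal bars give the percentage of genes with a region of all 4 antibodies within 2 kb of an end, for cytosolic ribosomal protein genes (top bar, orange), 4 other gene groups (blue) and all protein-coding genes (bottom bar, grey). With all peaks (left) the 5 groups drawn lie between 66.7% and 73.8%, against 38.4% of all genes. With the 10000 peaks of highest fold per antibody (right, shorter axis) they lie between 5.88% and 15.4%, against 7.91%. Ribosome assembly factor (76.9%), terminal oligopyrimidine (85.7%) and RNA polymerase I genes (5 of 5) had higher shares with all peaks and are not drawn.

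The regions at ribosomal protein genes were of moderate strength. The mean fold of the 59 genes with all 4 antibodies had a median of 6.64 (quartiles 5.56 and 8.18, range 4.14 to 29.5), against 7.24 (quartiles 5.66 and 9.98, range 1.83 to 41.3) for the 8298 such genes of the genome. The regions of 39 of the 59 lay below the median of all genes. A mean fold above 10 was found at 8 of the 59 (13.6%), against 24.9% of all genes with such a region.

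The lower strength was seen with each antibody. The median fold at the 59 genes was 5.56, against 6.18 for all genes, with Abcam133737, and 7.40, against 8.25, with Millipore07-601. It was 5.48, against 6.09, with Abcam76013 and 7.97, against 8.84, with Abcam133638. The median pileup behind these peaks was 28 tags with Abcam133737, 37 tags with Millipore07-601, 29 tags with Abcam76013 and 41 tags with Abcam133638, so the call at a single ribosomal protein gene rests on few tags. Of the 236 peaks in the best regions, 56.4% had the genome-wide background level within 1%, against 62.0% of all peaks, which means that the input set no local level for them.

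**Figure D2:**
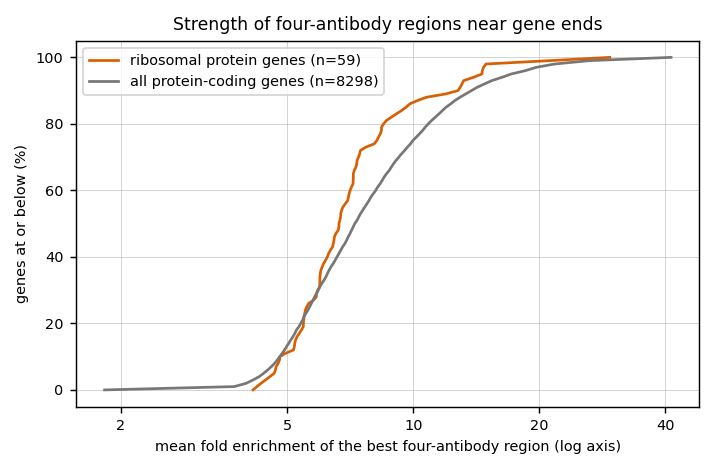
Cumulative percentage of genes (vertical axis) at or below a mean fold enrichment of the best region of all 4 antibodies (horizontal log axis), for 59 ribosomal protein genes (orange) and 8298 protein-coding genes (grey). The orange curve reaches 50% at 6.64 and the grey curve at 7.24, and the orange curve ends at 29.5, the value of Rps19.

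When only the 10000 peaks of highest fold were kept per antibody, the ribosomal protein genes came close to the genome. A region of all 4 antibodies then remained at 8 of the 80 (10%), against 7.91% of all genes. Among these were Rps19, Rplp0, Rps21, Rpl15, Rps26, Rpl17 and Rpl41. With a fold of at least 5 required of each peak, 27 of the 80 genes (33.8%) kept a region of all 4 antibodies, against 22.5% of all genes. The gap to all genes thus narrowed as higher folds were required.

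The highest region belonged to Rps19, a small subunit protein whose gene is mutated in Diamond-Blackfan anaemia in humans. Its fold was 23.9 with Abcam133737, 33.6 with Millipore07-601, 27.8 with Abcam76013 and 32.5 with Abcam133638, a mean of 29.5 (chr7:24890043-24890806). This region was not at the promoter: its summit lay 565 bp beyond the 3′ end of the gene, and its mean fold was above the 27.1 of the Sftpb region in the tissue check. A further region of all 4 antibodies lay at the Rps19 start (chr7:24883942-24884766) at 8.23, 12.3, 10.4 and 14.9 in the same order of antibodies.

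Rplp0, the protein that anchors the lateral stalk of the large subunit, came next. Its fold was 12.5 with Abcam133737, 15.5 with Millipore07-601, 12.7 with Abcam76013 and 19.2 with Abcam133638, and the summit lay 36 bp before the start, inside the printed promoter (chr5:115559241-115559600). That promoter held none of the motifs marked above. Rps21, a small subunit protein, had 13.8, 16.7, 12.3 and 15.8 in the same order (chr2:180256992-180257502), with the median summit 190.5 bp before the start. Both CCGGAAG matches of the printed sequence lay between this median and the start. The Abcam133737 summit (180257360), however, lay at the downstream edge of the match nearer the start.

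Rpl15, a large subunit protein, had 11.1, 20.3, 10.8 and 16.2 in the same order (chr14:18270826-18271442). Its region stood between neighbouring genes, with the summit 193.5 bp before the Rpl15 start and 43.5 bp from an end of Nkiras1, so it cannot be given to either gene alone. Rps26, a small subunit protein at the channel through which messenger RNA leaves, had 9.32, 17.3, 10.6 and 15.5 (chr10:128626338-128627026), and Rpl41, the smallest protein of the ribosome, had 9.68, 14.9, 11.8 and 14.6 (chr10:128548914-128549494). At both genes the highest values were those of Millipore07-601 and Abcam133638, the pair with the longer lists.

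Rpl17 had 11.1, 16.7, 10.1 and 14.0 in the same order, with a summit 1501.5 bp inside the gene. Rpl5, which with Rpl11 and the 5S ribosomal RNA forms a particle that restrains MDM2, had 4.83, 12.9, 8.77 and 16.1 (chr5:107900329-107900983). The low fold with Abcam133737 goes with a higher local background, since its pileup of 46 tags equalled that of Abcam76013. The median of the Rpl5 summits lay 38.5 bp before the start, beside the printed CTTGAG, but the Abcam133737 summit (107900446) lay farther upstream. At Rpl9 the median summit lay 46.5 bp before the start, whereas the printed CTTGAG lies near the 5′ end of its sequence. The placement at Rpl5 was thus not shared by Rpl9. Rpl37 had 8.23, 9.73, 6.90 and 13.1 (chr15:5115972-5116735) in a region that lay nearer an end of Card6 than its own.

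**Figure D3:**
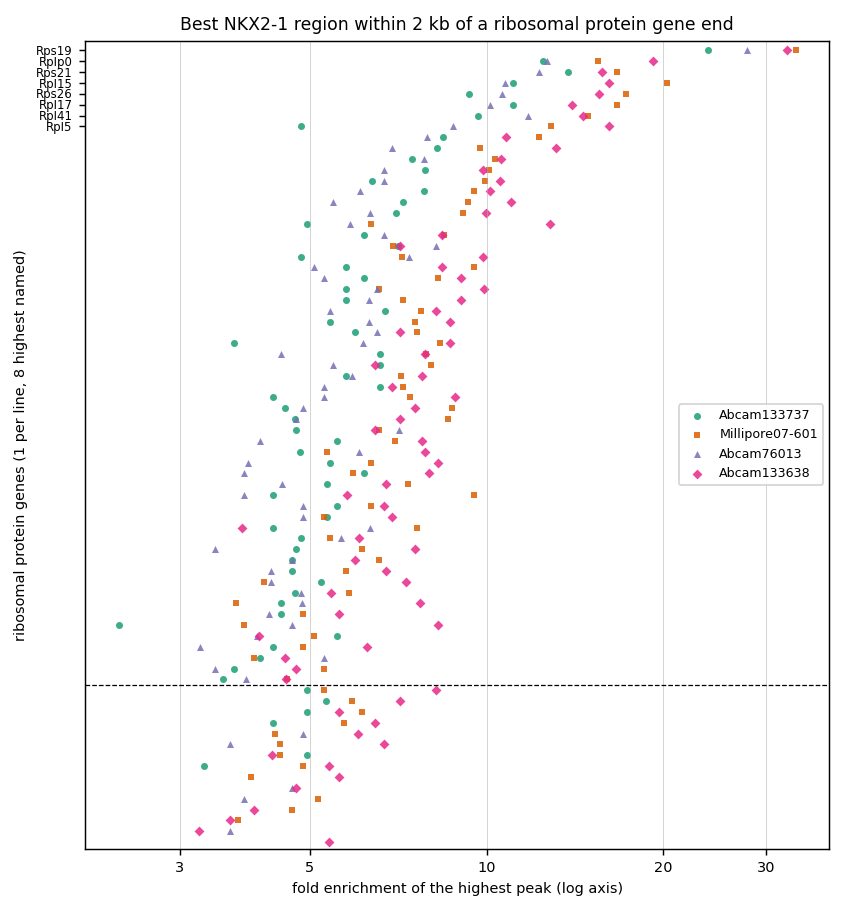
Fold enrichment of the highest peak (horizontal log axis) in the best region of the 74 ribosomal protein genes with a peak, with 1 symbol per antibody and gene. Genes run down the page by the number of antibodies and then by mean fold, the 8 highest are named and the dashed line separates the 59 genes with all 4 antibodies from the others; Rps19 stands apart at 23.9 to 33.6, and the 15 genes with fewer than 4 antibodies lie between 3.23 and 8.19.

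At the low end of the genes with all 4 antibodies stood Rps3a1 and Rps27, both of the small subunit. Rps3a1 had 3.55 with Abcam133737, 4.56 with Millipore07-601, 3.89 with Abcam76013 and 4.55 with Abcam133638. Rps27 had 4.12, 4.02, 5.28 and 4.53, in a region nearer an end of Rab13. Both antibodies with longer lists gave higher folds than both others at 45 of the 59 genes (76.3%), against 78.3% of all genes. The highest fold of a gene was 1.63 times its lowest in the median, and the widest gap in fold was at Rpl34, with 2.36, 3.86, 4.66 and 8.26, a ratio of 3.50. The pileups there were 22, 34, 24 and 42 tags, closer together than the folds, which also carry the local background of each peak.

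Some further genes are given for their known roles; they were picked by hand, and their values stand for themselves only. Rps6, the target of S6 kinases, had a mean fold of 8.40 and Rpl22, whose loss in mice harms T cell development, one of 8.39. Rpl38, needed in mice for translation of Hox messages, had 7.43, Rpl11, the partner of Rpl5, had 7.31 and Rps27a, which is made as a fusion with ubiquitin, had 6.97. Rps3, also studied in DNA repair, had 6.80 and Rpsa, also known as a laminin receptor, had 5.98.

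Of the other genes, 15 had a region called by 1 to 3 antibodies, as had 4083 of all 21631 genes. A best region of 3 antibodies was found at 8 (10%), against 7.03% of all genes. Regions of 2 were at 6 (7.5%, against 5.62%) and of 1 at 1 (1.25%, against 6.22%). Abcam133638 called 14 of the 15, Millipore07-601 called 12, Abcam133737 called 6 and Abcam76013 called 5. The mean folds of the 15 had a median of 4.79, against 4.41 for the partly called regions of all genes. Those with 3 antibodies were Rpl10, a late-joining protein of the large subunit, with 4.94 for Abcam133737, 5.29 for Millipore07-601 and 8.19 for Abcam133638, and Rps28 with 5.33, 5.89 and 7.13, Rpl32 with 4.94, 6.13 and 5.60, Rpl10a with 4.32, 5.71 and 6.47, Rplp2 with 4.94, 4.44 and 4.31 and Rpl31 with 3.29, 4.86 and 5.39 for the same antibodies. At all 6 the missing call was that of Abcam76013. Rps15 and Rpl35 lacked Abcam133737, with 4.37 and 4.44 for Millipore07-601, 4.87 and 3.65 for Abcam76013 and 6.03 and 6.68 for Abcam133638; the Rps15 region lay nearer Apc2, and that of Rplp2 nearer Pidd1.

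Rps12, Rpl24, whose mutation causes the belly spot and tail phenotype in mice, and Rpl39, which lines the exit tunnel, were called by Millipore07-601 (3.97, 4.65 and 3.77) and Abcam133638 (5.60, 4.02 and 3.65). Rps23 and Rpl6 were called by Abcam76013 (4.67 and 3.65) and Abcam133638 (4.74 and 3.23). Rps13 had a peak of Abcam133638 alone, at 5.38. A gene without a call by an antibody may still carry signal below the authors' q-value cutoff of 0.05, which peak lists do not show.

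The 6 genes with no peak within 2 kb of an end were Rpl12, Rpl36a, Rps4x and the retrogenes Rpl37rt, Rps23rg1 and Rps27rt. The closest summit lay 2437 bp from an end of Rpl37rt, 2810 bp from Rpl12, which sits at the base of the stalk, and 2861 bp from Rps27rt. It lay 9846 bp from Rps23rg1, 13090 bp from Rpl36a and 27730 bp from Rps4x. All 3 retrogenes, copies that arose from messenger RNA of a parent gene, were thus without a peak, and the others were Rpl12 and a pair on chromosome X.

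The X chromosome carries 4 of the 80 genes: Rpl10, Rpl39, Rpl36a and Rps4x. None of the 4 had a region of all 4 antibodies, against 9.83% of all genes on X, and Rpl10 and Rpl39 (2 of 4) had a peak of at least 1, against 28.6% of all genes on X. Calling was low over all genes of that chromosome as well, but 4 genes are too few for a comparison with these shares. The labels used here do not give the sex of the mice, and its part in these values was not tested.

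The second comparison places the summits. Over the 59 genes, the median distance from the region's median summit to the nearer end of the gene was 79 bp, against 209.75 bp over all genes with a region of all 4 antibodies. A summit within 250 bp of an end was found at 46 of the 59 (78.0%), against 53.1% of all, and within 100 bp at 34 (57.6%), against 35.3%. The nearest gene end was that of another gene at 5 of the 59, namely Rpl15 (Nkiras1), Rpl37 (Card6), Rpl19 (Cacnb1), Rpl9 (Lias) and Rps27 (Rab13). The share of all genes at which this was so was not counted. Another gene's end lay within 2 kb of the summit at 18 of the 59 (30.5%), against 32.8% of all genes.

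A RefSeq start with its strand was at hand for 60 of the 80 genes (75%), of which 41 had a region of all 4 antibodies, and positions from the start cover only these. The summit lay at a median of −46.5 bp (quartiles −117 and −13.5), upstream of the start at 34 of the 41 (82.9%), against 62.0% upstream among 6765 genes in all. It lay within 250 bp of the start at 35 of the 41 (85.4%), against 54.9%, and within 100 bp at 27 (65.9%), against 36.3%. Mitochondrial ribosomal protein genes had 84%, complex I genes 76%, proteasome genes 75.9% and translation factor genes 53.7% within 250 bp. Summits farther than 500 bp from a listed start were those of Rps19, at its 3′ end, and of Rpl18 and Rpl19, whose listed starts lie inside the gene.

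**Figure D4:**
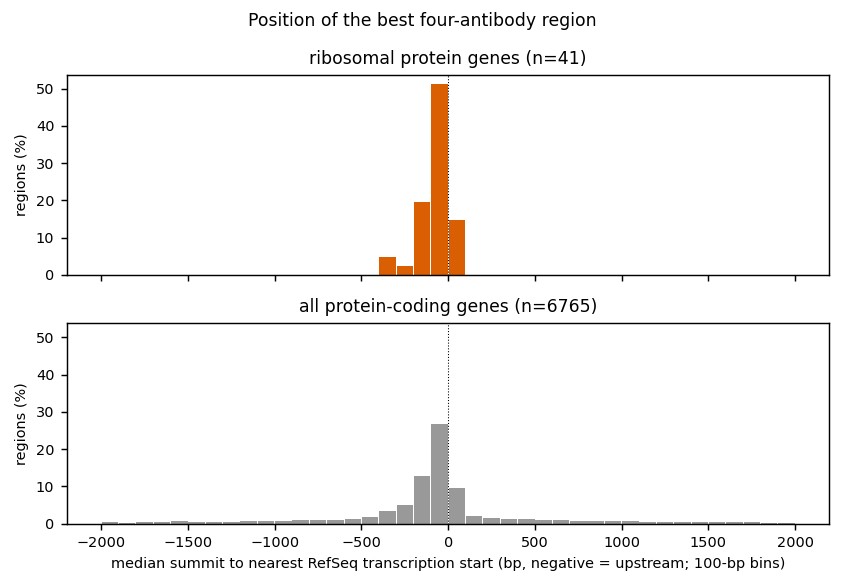
Distance from the median summit of the best region of all 4 antibodies to the nearest RefSeq transcription start (horizontal axis, bp, negative values upstream, 100-bp bins), as a percentage of regions (vertical axis), for 41 ribosomal protein genes (top) and 6765 protein-coding genes (bottom). The ribosomal protein regions gather just upstream of the start, with 65.9% within 100 bp, against 36.3% for all genes; distances beyond 2000 bp are not drawn.

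At 7 genes, among them Rps19, Rpl41, Rps9, Rpl4, Rpl36 and Rps15a, a region of all 4 antibodies lay within 2 kb of each end. The further region of Rpl41 (chr10:128547616-128548039) reached a mean fold of 8.19, against 12.7 at its best region. Those of Rps9, Rpl36, Rps15a and Rpl4 had mean folds of 5.66, 5.19, 5.02 and 4.40. Within a region the summits of the 4 antibodies lay close together: the span from the first to the last had a median of 55 bp over the 59 genes, against 50 bp over all genes.

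The third comparison sets the promoter sequences of the 60 genes beside all 17274 promoters of the RefSeq table, over 250 bases before to 50 after the start. The NKX2-1 form CTCAAG was in 7 of the 60 (11.7%), against 17.2% of all, and CACTTGA in 3 (5%), against 3.53%. Their shared core CAAG was in 51 (85%), against 91.2%. Among the 41 promoters of genes with a region of all 4 antibodies, 5 held CTCAAG, Rpl5 and Rpl9 among them as printed, and 1 held CACTTGA. Over all genes with such a region, 18.03% of promoters held CTCAAG and 2.60% held CACTTGA. Matches to NKX2-1 forms were thus no more frequent than in promoters at large for CTCAAG and CAAG.

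Motifs of other factors were more frequent. CCGGAAG was in 24 of the 60 (40%), against 13.1% of all promoters, and in 19 of the 41 with a region of all 4 antibodies and 5 of the other 19. Over all genes it was likewise more frequent with such a region (21.0% of promoters) than without (8.03%). Mitochondrial ribosomal protein promoters held it in 37.7%, proteasome promoters in 37.2% and translation factor promoters in 31.5%, whereas complex I promoters held it in 11.8%. TCGCGA, printed in Rps6, Rps9, Rps3a1 and Rpl12, was in 14 of the 60 (23.3%), against 3.86% of all, with 9 of the 41, against 6.15% of all genes with such a region, and 5 of the other 19, against 2.38%. In the other groups TCGCGA was in 2.90% of mitochondrial ribosomal protein, 2.33% of proteasome, 7.41% of translation factor and 8.82% of complex I promoters.

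GGGCGG, the form bound by SP1, was in 35 of the 60 (58.3%), against 49.8%, but among genes with a region of all 4 antibodies it was in 25 of the 41, against 68.4% of all such genes. AAGATGGCG was in 3 of the 60 (5%), against 2.15%. TATAAA was in 6 (10%), against 14.9%. On the sense strand, the pyrimidine-rich CTTTCC was in 24 (40%), against 16.1%, and TTTCTTT in 3 (5%), against 6.07%. CAAG lies within CTCAAG and, on the other strand, within CACTTGA, so these counts overlap. A match gives letters in the window and does not show that a factor was bound.

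Paralogs and other ribosome genes outside the 80 were varied. Of 7 paralogs that were listed by hand and whose symbol carries an l, 4 had a region of all 4 antibodies. Rps27l had a mean fold of 16.8 and a summit 1446 bp from an end, Rpl7l1 had 10.5, Rpl3l 10.2 and Rpl22l1 9.67. The Rpl3l summit lay nearer an end of Msrb1 (55 bp) than of Rpl3l (395 bp). Rpl10l had 3 antibodies, Rpl36al 2, and Rpl39l none. With every such symbol added to the 80 genes, 63 of 88 (71.6%) had a region of all 4 antibodies, against 38.4% of all genes. Rack1, a small subunit scaffold, had 11.2 and Fau, which yields Rps30, had 3.62, the region of Fau lying nearer Znhit2.

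Some genes of the other groups had higher folds than every ribosomal protein gene but Rps19. Ndufs4 of complex I had a mean fold of 28.6, Polr1c of RNA polymerase I 24.7, in a region nearer Xpo5, and the proteasome genes Psmd1 and Psme1 22.3 and 21.0. Eif2b5 was the highest translation factor gene with 19.1, Rrp9 the highest assembly factor gene with 16.7 and Mrps16 the highest mitochondrial ribosomal protein gene with 16.6, against 15.0 at Rplp0. The Rrp9 region lay nearer Parp3. The median mean folds were 7.08 for mitochondrial ribosomal protein, 6.98 for translation factor, 6.96 for proteasome, 6.87 for complex I, 6.16 for assembly factor, 7.28 for terminal oligopyrimidine and 10.6 for the 5 RNA polymerase I genes, beside the 6.64 of the cytosolic ribosomal protein genes.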

How the data were processed

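The files are peak tables of 4 NKX2-1 ChIP-seq libraries from mouse lung. Peaks were called by the authors, per the file headers with MACS 2.1.2, for each antibody against the same input, with a q-value cutoff of 0.05 and 1 tag kept per position. The deposited values are the pileup signal in tags, the fold enrichment (a ratio over the local background) and the −log10 p-value and q-value. The submitters' processing notes name deepTools, Bowtie, MACS2, SAMtools, Trimmomatic and FastQC, and build mm10; other versions are not given in the sources used here. The fold is the authors' value and serves to describe and rank peaks.

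Peaks were assigned to genes of RefSeq GRCm38.p6 by a summit within 2 kb of a gene start or end, and overlapping peaks (at least 1 bp) were merged, in Python 3.11.15 with pandas 2.3.3. The assignment was tested on simulated peaks at longer genes far from any other gene end. Short genes with a close neighbour, as many ribosomal protein genes are, were not covered by that test. The table gives gene starts and ends without exons. Transcription starts, strands and promoter sequences come from RefSeq promoters. Starts and strands were matched by gene identifier for 60 of 80 genes.

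The genes, lists and motifs were chosen with earlier results of these data known. Named genes are the 10 highest and 3 lowest by mean fold, those with fewer than 4 antibodies, with more than 1 region of 4 or nearer another gene, and the highest of each list; those with known further roles were added after their values were seen. Some genes in the counts are not reported here by name. With 1 library per antibody no test was made. Alternatives were other distances, overlaps, thresholds and gene sets.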

Additional observations from a re-analysis of the deposited data

How the results depend on the processing

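The counts of 59 ribosomal protein genes with a region of all 4 antibodies and of 74 with any peak moved most with thresholds on strength. With a fold of at least 5 the first became 27 of 80 (33.8%, against 22.5% of all genes) and the median fold 8.25, against 9.32. With the 10000 strongest peaks per antibody the counts became 8 and 16 of 80 (20%, against 16.4%) and the median 13.9, against 13.6, since weaker peaks are removed by construction. Without genes that have another gene's end within 2 kb, 31 of 39 (79.5%, against 29.7%) had a region of all 4 antibodies. Any peak was found at 36 of 39 (92.3%, against 46.7%), over fewer genes. Leaving out 1 antibody at a time gave 59 to 65 genes with a region of all remaining antibodies (73.8% to 81.3%, against 38.5% to 42.0% of all genes). Any peak was then found at 73 to 74 genes, against 53.5% to 57.0% of all genes. The medians were 6.25 to 6.93, against 6.75 to 7.37. The other alternatives gave 51 of 80 (63.8%, −log10 q-value of at least 5) to 69 of 80 (86.3%, a distance of 10 kb) genes. The shares of all genes at these settings were 32.6% and 54.3%. From transcription starts only, 41 of 60 (68.3%) had such a region, against 37.5% of all genes. Without the retrogenes, 59 of 77 genes (76.6%) had such a region, against 38.4% of all genes. Alternatives without chromosome X, genes over 10 kb, predicted and chemoreceptor genes, or retrogenes were chosen after seeing the data. No paired analysis was possible because each antibody has 1 library and no test was made. Low pileups and 1 library per antibody limit what a missing call at a single gene shows.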
